A study of Rattus norvegicus with 24 samples.

Results

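The RIG-I-like receptors were described across the kidneys of pregnant and non-pregnant rats of 2 strains. The family has 3 genes, Ifih1 (encoding MDA5), Ddx58 (encoding RIG-I) and Dhx58 (encoding LGP2), and all 3 had a row among the 32883 genes of the count table. Each row was found by matching the log2 fold change and mean level of the symbol, to the same quantities refitted from the counts. One row matched each symbol, with identifiers ENSRNOG00000006227 for Ifih1, ENSRNOG00000006384 for Ddx58 and ENSRNOG00000018247 for Dhx58. All 3 were among the 14212 genes with enough reads to be tested.

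RNA was measured in kidney cross-sections of cortex and medulla from 12 female rats of about 2 months of age, with 3 rats in each of 4 groups. The groups were non-pregnant Sprague Dawley rats (CD-NP), Sprague Dawley rats at pregnancy day 18 (CD-P18), non-pregnant Brown Norway rats (BN-NP) and Brown Norway rats at pregnancy day 18 (BN-P18). No group received a drug or carried a targeted allele, and each pregnant female had been mated with a male of its own strain. CD is an outbred stock used as a model of uncomplicated pregnancy, and BN is an inbred strain used as a model of pregnancy with preeclampsia-like features. The comparisons asked how the kidney's RNA differed between the pregnant and the non-pregnant state within a strain, and between the strains at either stage.

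RIG-I-like receptors are RNA helicases of the cytoplasm that bind double-stranded RNA. MDA5 binds long duplexes, and RIG-I binds shorter duplexes and RNA ends that carry a triphosphate. Both signal through the mitochondrial adaptor MAVS to kinases that activate IRF3, IRF7 and NF-κB, and so induce type I interferon. LGP2 lacks the signalling domains of the other two and modulates them. All 3 genes are themselves induced by interferon, through a complex that includes STAT2 and IRF9 and binds a DNA motif called the interferon-stimulated response element (ISRE). The receptors are best known from virus infection, and kidney tubular and glomerular cells are among the cells that can express them.

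The ISRE is shown because it is the element through which genes of this family are known to respond to interferon. Promoters were searched for GAAA, any 2 bases and GAAA again, on either strand with overlaps allowed, from 250 bases before to 50 bases after each gene's start in the RefSeq annotation of the GRCr8 assembly. Of 33469 promoters of this length, 1312 (3.92%) held the motif. The Ifih1 promoter held it once, on the gene's own strand, 59 to 50 bases before the start. Ddx58 and Dhx58 had no promoter in the reference table. The windows below are 30 bases long, are written 5′ to 3′ on the gene's strand, and carry the motif in capitals. The other 3 genes are those whose levels over the 12 rats were closest to a receptor and whose promoter held the motif, Eif2ak2 for Ifih1 and Ddx58, Lgals9 as the next for Ddx58, and Gbp1 for Dhx58. In Lgals9 the motif is on the opposite strand, and in Gbp1 a pair of overlapping motifs is shown.
Ifih1 (chr3:67684008-67684037, minus strand): gaagagaatcGAAACAGAAAccgatgtgtg
Eif2ak2 (chr6:21941128-21941157, plus strand): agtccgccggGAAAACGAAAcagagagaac
Lgals9 (chr10:64428067-64428096, minus strand): gtagctgtggTTTCTGTTTCctagctgagt
Gbp1 (chr2:234072288-234072317, plus strand): tagtgagGAAAAAGAAACTGAAActcagga
A match of letters is a description of these windows, and binding was not measured.

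Levels are given as CPM, the reads on a gene relative to all reads on genes of that library, scaled between libraries with edgeR's TMM factors, as mean ± SD of 3 rats. The libraries held between 8274159 and 11879451 reads on genes, and the receptors were read 35 to 527 times per library. Markers of the proximal tubule, distal tubule, collecting duct and podocyte were present in all groups, with Slc34a1, the proximal tubule's phosphate transporter, at 1618 to 2716 CPM as group means. A gene was called changed when the Benjamini-Hochberg adjusted p over all tested genes was under 0.1 and its log2 fold change was over 0.32 in size. Differences are log2 fold changes from edgeR's quasi-likelihood test over the 12 libraries, with their standard error (SE).

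All 3 receptors were higher at P18 than at NP in both strains. In CD kidneys Dhx58 rose 3.02-fold, Ddx58 2.03-fold and Ifih1 1.80-fold, and in BN kidneys Dhx58 rose 2.32-fold, Ifih1 1.72-fold and Ddx58 1.49-fold. Each of these 6 changes passed the test, and in each the 3 pregnant rats lay above the 3 non-pregnant rats. The rows were found through the study's list of genes with a low p in these same libraries, so passing here is not separate support. Over all tested genes, 2.56% were called higher in CD, 0.823% in BN and 0.436% in both strains. The shares of genes whose P18 rats all lay above the NP rats were 11.1% in CD and 7.85% in BN.

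**Figure D1:**
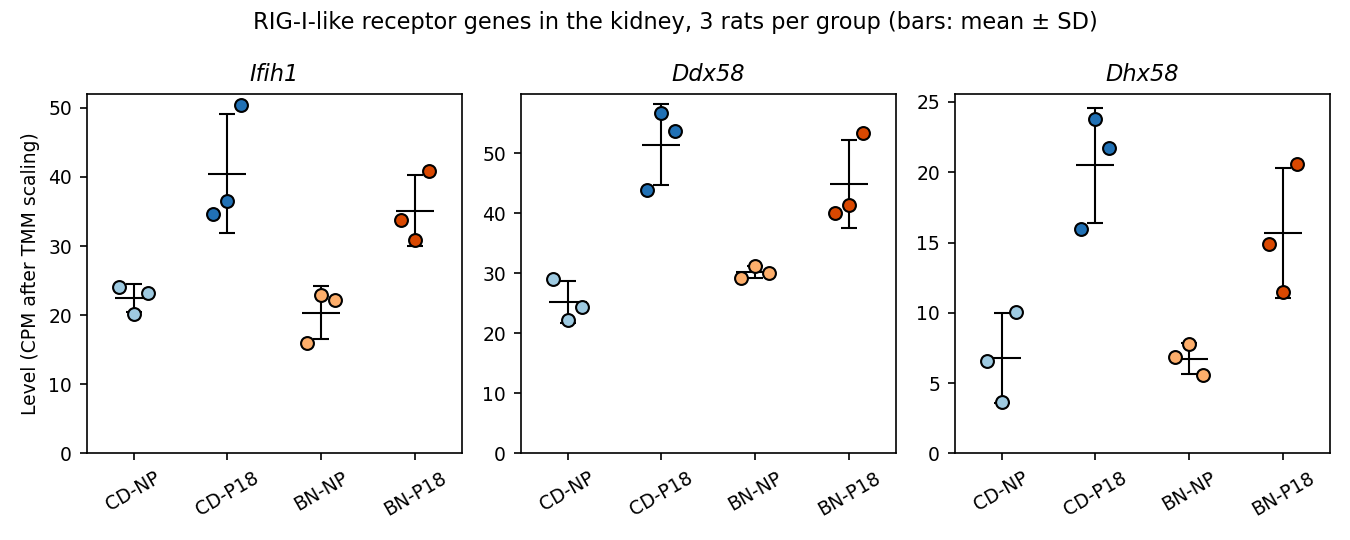
Level of each receptor gene in CPM (vertical axes start at 0) in the 4 groups, with 1 point per rat and bars for mean ± SD. For each gene and strain the 3 P18 points lie above the 3 NP points.

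Ifih1 was read at 24.1, 20.2 and 23.2 CPM in the CD-NP rats and at 34.6, 36.5 and 50.4 CPM in the CD-P18 rats. CD-P18 rat 3 stood above the other two, and the lowest pregnant rat was still above the highest non-pregnant one. The mean rose from 22.5 ± 2.07 to 40.5 ± 8.59 CPM (SD, n = 3), a log2 fold change of 0.85 (SE 0.17, edgeR adjusted p = 0.015). In BN-NP rats Ifih1 was at 16.0, 22.9 and 22.2 CPM, and in BN-P18 rats at 33.7, 30.9 and 40.8 CPM. BN-NP rat 1 was the lowest of the 12. The mean rose from 20.4 ± 3.81 to 35.1 ± 5.11 CPM (SD, n = 3), a log2 fold change of 0.79 (SE 0.17, edgeR adjusted p = 0.059).

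Ddx58 had the lowest p of the 3 in CD, at rank 29 among all tested genes. Its levels were 29.0, 22.3 and 24.4 CPM in CD-NP and 43.8, 56.6 and 53.7 CPM in CD-P18. The CD mean rose from 25.2 ± 3.45 to 51.4 ± 6.73 CPM (SD, n = 3), a log2 fold change of 1.02 (SE 0.13, edgeR adjusted p = 0.00119). In BN the levels were 29.2, 31.3 and 30.03 CPM at NP and 40.0, 41.4 and 53.4 CPM at P18. The 3 BN-NP rats were the closest to each other of any group and receptor, with a coefficient of variation of 3.40%. The BN mean rose from 30.2 ± 1.03 to 44.9 ± 7.33 CPM (SD, n = 3), a log2 fold change of 0.57 (SE 0.13, edgeR adjusted p = 0.0767).

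Dhx58 had the fewest reads and the largest fold changes of the 3. Its levels were 6.58, 3.69 and 10.1 CPM in CD-NP and 15.9, 23.8 and 21.7 CPM in CD-P18. The CD-NP rats differed from each other more than in any other group, with a coefficient of variation of 47.2%. The CD mean rose from 6.78 ± 3.20 to 20.5 ± 4.07 CPM (SD, n = 3), a log2 fold change of 1.59 (SE 0.29, edgeR adjusted p = 0.0107). In BN the levels were 6.85, 7.79 and 5.58 CPM at NP and 14.9, 11.5 and 20.6 CPM at P18. The BN mean rose from 6.74 ± 1.11 to 15.7 ± 4.61 CPM (SD, n = 3), a log2 fold change of 1.22 (SE 0.30, edgeR adjusted p = 0.0925).

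Averaged over the strains, the log2 CPM difference between P18 and NP was 0.81 for Ifih1, 0.79 for Ddx58 and 1.41 for Dhx58. An exact two-sided permutation test, with the stage labels permuted within each strain in all 400 arrangements, gave p = 0.005 for each gene, which is the smallest p this design can give. The genes were chosen with earlier results of these data known, so this test is not separate support either. Whole kidney sections were measured, so more cells of a type and more RNA per cell cannot be told apart.

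The rise of Dhx58 was set beside those of the other receptors within each rat, a comparison chosen after the values were seen. The Dhx58 to Ddx58 ratio was higher at P18 by 0.62 on the log2 scale, at 0.64 in CD and 0.61 in BN (exact permutation p = 0.02). The Dhx58 to Ifih1 ratio was higher by 0.60, at 0.83 in CD and 0.38 in BN (exact permutation p = 0.025). The Ddx58 to Ifih1 ratio moved by -0.02, with 0.19 in CD and -0.23 in BN (exact permutation p = 0.88). Over these 3 ratios the Benjamini-Hochberg adjusted values of the exact test were 0.0375, 0.0375 and 0.88. The adjustment does not cover the choice made after the values were seen, so these tests are not separate support. Among the CD-NP rats the log2 ratio of Dhx58 had an SD of 0.645 to Ddx58 and 0.599 to Ifih1.

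**Figure D2:**
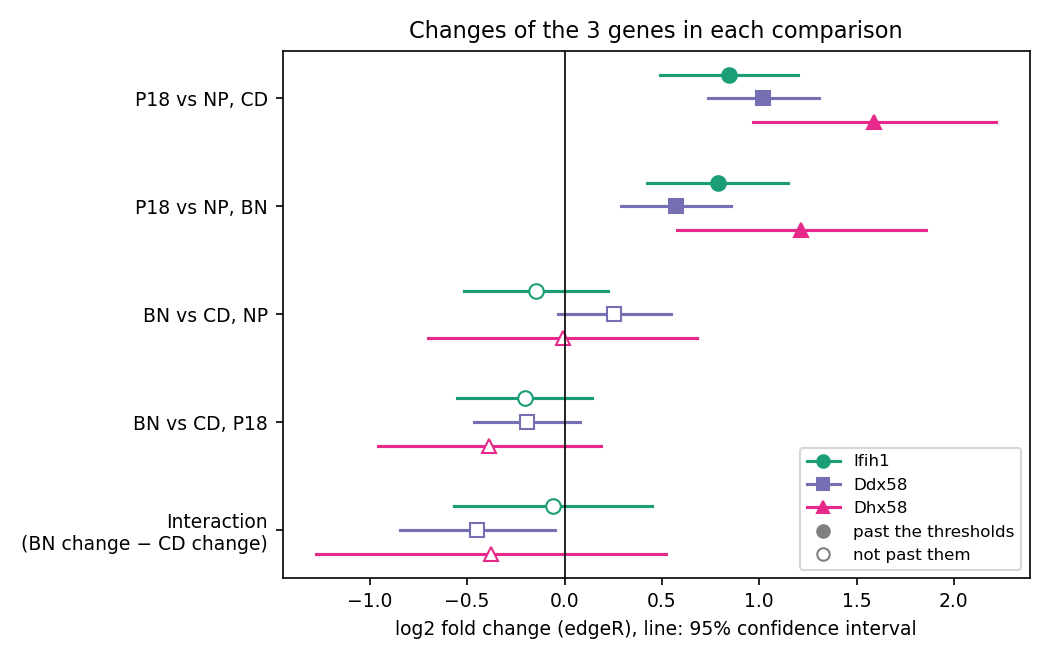
Log2 fold change of each receptor gene (horizontal axis, edgeR, line: 95% confidence interval) in the 4 comparisons and in the interaction of pregnancy with strain, with filled symbols for changes past the thresholds. The 6 pregnancy changes lie between 0.57 and 1.59 and are filled, and no strain difference or interaction is filled.

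None of the 6 strain differences, of 3 genes at 2 stages, passed the test in edgeR, at the adjusted or at an unadjusted threshold of 0.05, and DESeq2 called none. Of all tested genes 8.38% were called between the strains at NP and 9.60% at P18. At NP, Ifih1 differed by -0.15 in BN against CD (95% confidence interval -0.52 to 0.23) and Dhx58 by -0.01 (-0.70 to 0.68). For Ddx58 the groups did not overlap, since the 3 BN-NP rats at 29.2 to 31.3 CPM lay above the 3 CD-NP rats at 22.3 to 29.0 CPM. The difference was 0.26 on the log2 scale (SE 0.14, edgeR adjusted p = 0.308), and 11.6% of tested genes had all BN-NP rats above all CD-NP rats. At P18 all 3 point estimates were lower in BN than in CD, at -0.21 for Ifih1 (-0.55 to 0.14), -0.19 for Ddx58 (-0.47 to 0.08) and -0.39 for Dhx58 (-0.96 to 0.19), with overlapping rats for each gene. The intervals for Dhx58 leave room for strain differences of more than 1.5-fold in either direction at NP, so its strain difference was not determined at this sample size.

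Whether the pregnancy change itself differed between the strains was tested as an interaction, the BN change minus the CD change. For Ifih1 the interaction was -0.06 on the log2 scale (95% confidence interval -0.57 to 0.45, edgeR adjusted p = 0.955). For Dhx58 it was -0.38 (-1.27 to 0.52, edgeR adjusted p = 0.791). For Ddx58, which rose 2.03-fold in CD and 1.49-fold in BN, it was -0.45 (-0.85 to -0.05), with an unadjusted p of 0.0307 in edgeR and an adjusted p of 0.345. None of the 3 interactions passed the test, 1 of the 3 had an unadjusted p under 0.05, and DESeq2 called none. Of the 14212 tested genes, 1742 had an unadjusted p under 0.05 for the interaction in edgeR, and 0.943% were called for it.

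The BN calls were lost with a single rat left out, and the CD calls were not. With each of the 12 rats left out in turn, all 3 CD calls were kept in 12 of 12 fits, with log2 fold changes from 0.66 to 0.95 for Ifih1, 0.94 to 1.14 for Ddx58 and 1.30 to 1.98 for Dhx58. The BN direction was also kept in every fit, at 0.64 to 0.88 for Ifih1, 0.44 to 0.65 for Ddx58 and 0.97 to 1.41 for Dhx58. The Ifih1 call in BN was lost without BN-NP rat 1 (adjusted p = 0.225), BN-NP rat 2 (adjusted p = 0.134) or BN-P18 rat 3 (adjusted p = 0.186). The Ddx58 call in BN was lost without BN-NP rats 1, 2 or 3 (adjusted p = 0.247, 0.212 and 0.139) and without BN-P18 rats 2 or 3 (adjusted p = 0.15 and 0.229). The Dhx58 call in BN was kept only in the 3 fits that left out a CD-NP rat. It was lost without BN-NP rats 1, 2 or 3 (adjusted p = 0.267, 0.24 and 0.205), without BN-P18 rats 1, 2 or 3 (adjusted p = 0.126, 0.115 and 0.277) and without CD-P18 rats 1, 2 or 3 (adjusted p = 0.105, 0.116 and 0.119). All of these p-values are from edgeR with Benjamini-Hochberg adjustment over all genes. Over all genes, the number called in BN went from 199 with every rat to between 27 and 228 in these fits.

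**Figure D3:**
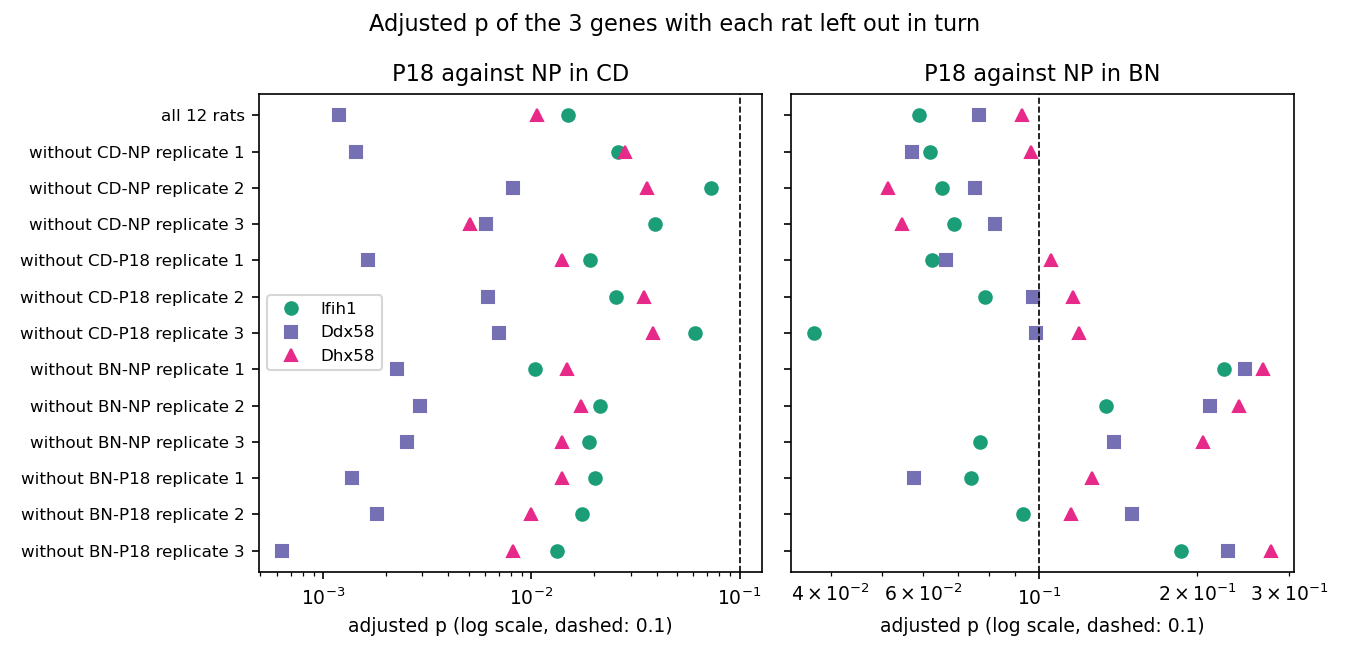
Adjusted p of the pregnancy change of each receptor gene (horizontal log axis, dashed line at 0.1) with all 12 rats and with each rat left out in turn, for CD and for BN. In CD all points lie left of the line, and in BN 17 of the 36 leave-one-out points lie right of it.

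The 3 genes were also compared in how rats of 1 group differed from each other. The pooled within-group SD on the log2 scale was 0.24 for Ifih1, 0.18 for Ddx58 and 0.45 for Dhx58, against a median of 0.17 over all tested genes. Dhx58 varied more than 90.2% of tested genes, which includes the counting error of its lower read number. BN-P18 rat 3 was the highest of its group for all 3 receptors, by 0.23, 0.26 and 0.43 on the log2 scale over its group mean for Ifih1, Ddx58 and Dhx58. CD-P18 rat 1 and CD-NP rat 2 were the lowest of their groups for all 3 receptors. In BN-NP the order differed by gene, with rat 1 lowest for Ifih1 and Ddx58 and rat 3 lowest for Dhx58.

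Other genes were ranked by how closely they followed a receptor over the 12 rats, as the root mean square difference of log2 CPM after centring each gene on its mean. Eif2ak2, which encodes PKR, a kinase activated by double-stranded RNA, was the closest gene to both Ifih1 (0.14) and Ddx58 (0.14), where the median over all genes was 0.50 and 0.48. Adar, whose product edits double-stranded RNA, was the next for Ifih1 (0.17) and also followed Ddx58 (0.16). Ifih1 was further followed by Pml, Rnf213 and Dtx3l at 0.18 to 0.20, and Ddx58 by Lgals9, Parp9 and Bst2 at 0.16 to 0.19. The genes closest to Dhx58 were Gbp1, Ube2l6, Irf9, Lgals3bp and MGC108823 at 0.30 to 0.34, with a median over all genes of 0.83. The measure grows with a gene's own spread, which was largest for Dhx58, so distances cannot be compared between the receptors. Between the receptors, Ifih1 and Ddx58 differed by 0.22, and Dhx58 differed from them by 0.46 and 0.44. Of these 13 neighbouring genes, 12 had a promoter in the reference table and 8 of the 12 held the ISRE letters shown above. The letters were not found for Rnf213, Parp9, Ube2l6 and Irf9. Of all 33469 promoters 3.92% held them, but these are not limited to tested genes, so the shares are not like for like. The neighbours were chosen by their values, so their levels carry no test here, and the difference between P18 and NP enters the measure.

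The pathway around the receptors was described from lists of their partners. Only genes whose symbol could be paired with a row had a value, 39 of 84, and the table used for the pairing was limited to genes with a low p in some comparison of these samples. The counts therefore lean towards changed genes. Of the 39 genes, 27 were called higher and 2 lower at P18 in CD, and 26 higher and 0 lower in BN. The 2 lower ones were Tnfaip3 and Ikbke. Of all tested genes, 2.56% were called higher and 2.15% lower in CD, and 0.823% higher and 0.577% lower in BN.

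Among cofactors and positive regulators of RIG-I-like receptors, 6 of 10 genes had a value, of which 3 rose in CD and 1 in BN, with a median log2 fold change of 0.36 in CD and 0.27 in BN. The median over all tested genes was -0.01 in CD and 0.00 in BN. Trim25, the ubiquitin ligase that activates RIG-I, was at 35.3, 48.5 and 40.6 CPM in CD-NP and 68.1, 75.7 and 73.3 CPM in CD-P18, and the groups did not overlap. It rose by 0.80 on the log2 scale in CD (SE 0.12, edgeR adjusted p = 0.00242). In BN it was at 40.3, 35.2 and 34.4 CPM at NP and 50.2, 42.3 and 53.2 CPM at P18, a difference of 0.41 that did not pass the test (SE 0.12, edgeR adjusted p = 0.173). At P18 Trim25 was lower in BN than in CD by 0.58 on the log2 scale (SE 0.11, edgeR adjusted p = 0.00791), though its interaction did not pass the test (-0.40, edgeR adjusted p = 0.345). Oasl, whose product is known to enhance RIG-I signalling, rose by 1.45 in CD and 1.93 in BN (edgeR adjusted p = 0.00437 and 0.00285). Zc3hav1, an antiviral RNA-binding protein with a RIG-I-stimulating isoform, rose by 0.52 in CD (edgeR adjusted p = 0.0211) and differed by 0.41 in BN (edgeR adjusted p = 0.124). Prkra, Dhx15 and Trim14 were not called in either strain. Rnf135, a further ubiquitin ligase for RIG-I, was among the genes not analysed here.

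Among negative regulators 2 of 9 genes had a value, and for both the interaction passed the test with all rats. Of all tested genes 0.943% were called for the interaction. Nlrc5, a NOD-like receptor known to inhibit this pathway and known as the transactivator of class I histocompatibility genes, was at 17.7, 16.5 and 19.0 CPM in CD-NP and 13.1, 18.7 and 13.2 CPM in CD-P18. In BN it was at 9.02, 9.49 and 11.8 CPM at NP and 17.4, 16.3 and 20.3 CPM at P18. The BN groups did not overlap and the CD groups did. Nlrc5 rose by 0.83 in BN (SE 0.16, edgeR adjusted p = 0.0384), differed by -0.25 in CD (edgeR adjusted p = 0.455), and had an interaction of 1.07 (SE 0.22, edgeR adjusted p = 0.0551). At NP Nlrc5 differed in BN against CD by -0.81 on the log2 scale (SE 0.16, edgeR adjusted p = 0.00914), and at P18 the strains differed by 0.27 (SE 0.15, edgeR adjusted p = 0.342). The NP call was kept in 12 of 12 fits with a rat left out, and the P18 difference was called without CD-P18 rat 2 (0.45, edgeR adjusted p = 0.0961). The BN call was lost without BN-NP rats 1 or 2 or BN-P18 rat 3, with an adjusted p of up to 0.17, and the interaction was kept in 7 of 12 fits.
Tnfaip3, which encodes the ubiquitin-editing enzyme A20, was at 10.6, 10.1 and 10.6 CPM in CD-NP and 6.60, 7.82 and 7.13 CPM in CD-P18, and at 6.63, 6.45 and 7.48 CPM in BN-NP and 10.1, 8.75 and 7.55 CPM in BN-P18. It fell by 0.55 on the log2 scale in CD (SE 0.14, edgeR adjusted p = 0.0605), differed by 0.36 in BN (edgeR adjusted p = 0.398), and had an interaction of 0.90 (SE 0.20, edgeR adjusted p = 0.0844). At NP Tnfaip3 also differed in BN against CD by -0.61 (SE 0.14, edgeR adjusted p = 0.0257), and at P18 by 0.29 (SE 0.14, edgeR adjusted p = 0.258). For both genes the NP difference, lower in BN, passed the test and the P18 difference did not with all rats. The CD call of Tnfaip3 was lost without any one of the CD-NP rats or without CD-P18 rats 1 or 3, with an adjusted p of up to 0.183, and the interaction was kept in 3 of 12 fits.

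Of the adaptor and kinase list 4 of 17 genes had a value, and Mavs and Tbk1 were among those not analysed here. Ikbke, the gene of the kinase IKKε that phosphorylates IRF3 and IRF7, was at 12.7, 14.98 and 12.8 CPM in CD-NP and 10.3, 8.60 and 9.48 CPM in CD-P18. It fell by 0.51 on the log2 scale in CD (SE 0.15, edgeR adjusted p = 0.0867) and differed by 0.15 in BN (edgeR adjusted p = 0.813). The interaction was 0.66 (edgeR adjusted p = 0.198), and at P18 Ikbke was higher in BN than in CD by 0.64 (edgeR adjusted p = 0.0169). Its CD call was kept in 4 of 12 fits with a rat left out, those without BN-NP rats 2 or 3 or BN-P18 rats 2 or 3, and the adjusted p reached 0.263 in the others. Tank, Tradd and Fadd, signalling adaptors below MAVS, were not called in either strain.

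Of the transcription factors only Irf7 had a value, and Irf3 was not analysed here. Irf7 was at 25.9, 11.4 and 18.2 CPM in CD-NP and 64.5, 68.7 and 78.0 CPM in CD-P18, a rise of 1.92 on the log2 scale (SE 0.33, edgeR adjusted p = 0.00715). In BN it was at 11.5, 24.8 and 20.3 CPM at NP and 37.9, 37.4 and 79.6 CPM at P18, a rise of 1.45 (SE 0.33, edgeR adjusted p = 0.0766). BN-P18 rat 3, the highest of its group for each receptor, was also the highest for Irf7. The BN call was lost without CD-P18 rats 1 or 2, any one of the BN-NP rats, or BN-P18 rat 3, with an adjusted p of up to 0.268. None of the 8 interferon and cytokine products on the list, which include Ifnb1 and Cxcl10, could be paired with a row, so the interferon itself was not analysed here.

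Of the other RNA sensors 8 of 9 had a value, and 7 rose in CD and 7 in BN. Their medians were 1.18 in CD and 1.22 in BN on the log2 scale. Oas2, an oligoadenylate synthetase activated by double-stranded RNA, rose by 2.42 in CD and 2.02 in BN (edgeR adjusted p = 0.000832 and 0.00826). Whether reads were divided between Oas genes of similar sequence was not examined. Eif2ak2 was at 43.9, 37.6 and 45.6 CPM in CD-NP and 73.2, 87.3 and 87.1 CPM in CD-P18, and rose by 0.96 (edgeR adjusted p = 0.00137). In BN it rose by 0.74 (edgeR adjusted p = 0.0253), a call lost without BN-NP rat 1 (adjusted p = 0.137). Adar rose by 0.68 in CD and 0.65 in BN (edgeR adjusted p = 0.00232 and 0.00999).

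Of the genes of interferon receptor signalling 3 of 8 had a value, and all 3 rose in both strains. Irf9, the DNA-binding part of the complex named above, rose from 14.2 ± 1.40 to 37.0 ± 2.42 CPM in CD and from 14.2 ± 0.817 to 31.0 ± 3.01 CPM in BN (SD, n = 3). Its log2 fold changes were 1.38 and 1.12 (edgeR adjusted p = 6.7e-05 and 0.000533). Stat2, its partner, rose by 0.56 and 0.47 (edgeR adjusted p = 0.0147 and 0.0776), and the BN call was lost in 5 of 12 fits with a rat left out, without CD-P18 rat 2, BN-NP rats 1 or 3 or BN-P18 rats 2 or 3, with an adjusted p of up to 0.271. Usp18, an inhibitor of the interferon receptor, rose by 1.99 in both strains (edgeR adjusted p = 0.0119 and 0.0394), and its BN call was lost without BN-NP rat 1 or BN-P18 rat 3 (adjusted p of up to 0.143). Of the interferon-induced effectors 15 of 18 had a value, and 13 rose in CD and 13 in BN, with medians of 0.89 and 1.01. The leading ones by p in CD were Ifi27, Ifi44 and Parp9, with rises of 2.36, 1.74 and 1.04 in CD and 1.16, 1.02 and 0.71 in BN. The BN calls of Ifi27 and Ifi44 were lost without BN-NP rats 1 or 2 or BN-P18 rat 3 (adjusted p of up to 0.174), and that of Parp9 without BN-NP rat 1 (adjusted p = 0.121). The receptors' own changes, at 0.57 to 1.59, lay within the range of these genes. Between the strains at NP, 2 effectors, Ifi44 and Parp9, were called, where 8.38% of all tested genes were called. Both were higher in BN, by 0.705 and 0.456 (edgeR adjusted p = 0.0693 and 0.0445). These calls were kept in 8 and 9 of 12 fits with a rat left out. At P18 the strain differences of Ifi44 and Parp9 were -0.009 and 0.132 and were not called. Between the strains at P18, 3 effectors were called higher in BN and 1 lower, where 9.60% of all tested genes were called. The higher ones were Herc6, Rsad2 and Ifit2, at 0.731, 0.578 and 0.61 in BN against CD (edgeR adjusted p = 0.0089, 0.04 and 0.0841). Fits with a rat left out are not given for these 3. The lower one was Ifi27, at -1.56 in BN against CD (edgeR adjusted p = 0.000573), called in 12 of 12 fits with a rat left out. Its interaction did not pass the test (-1.20, edgeR adjusted p = 0.132).

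**Figure D4:**
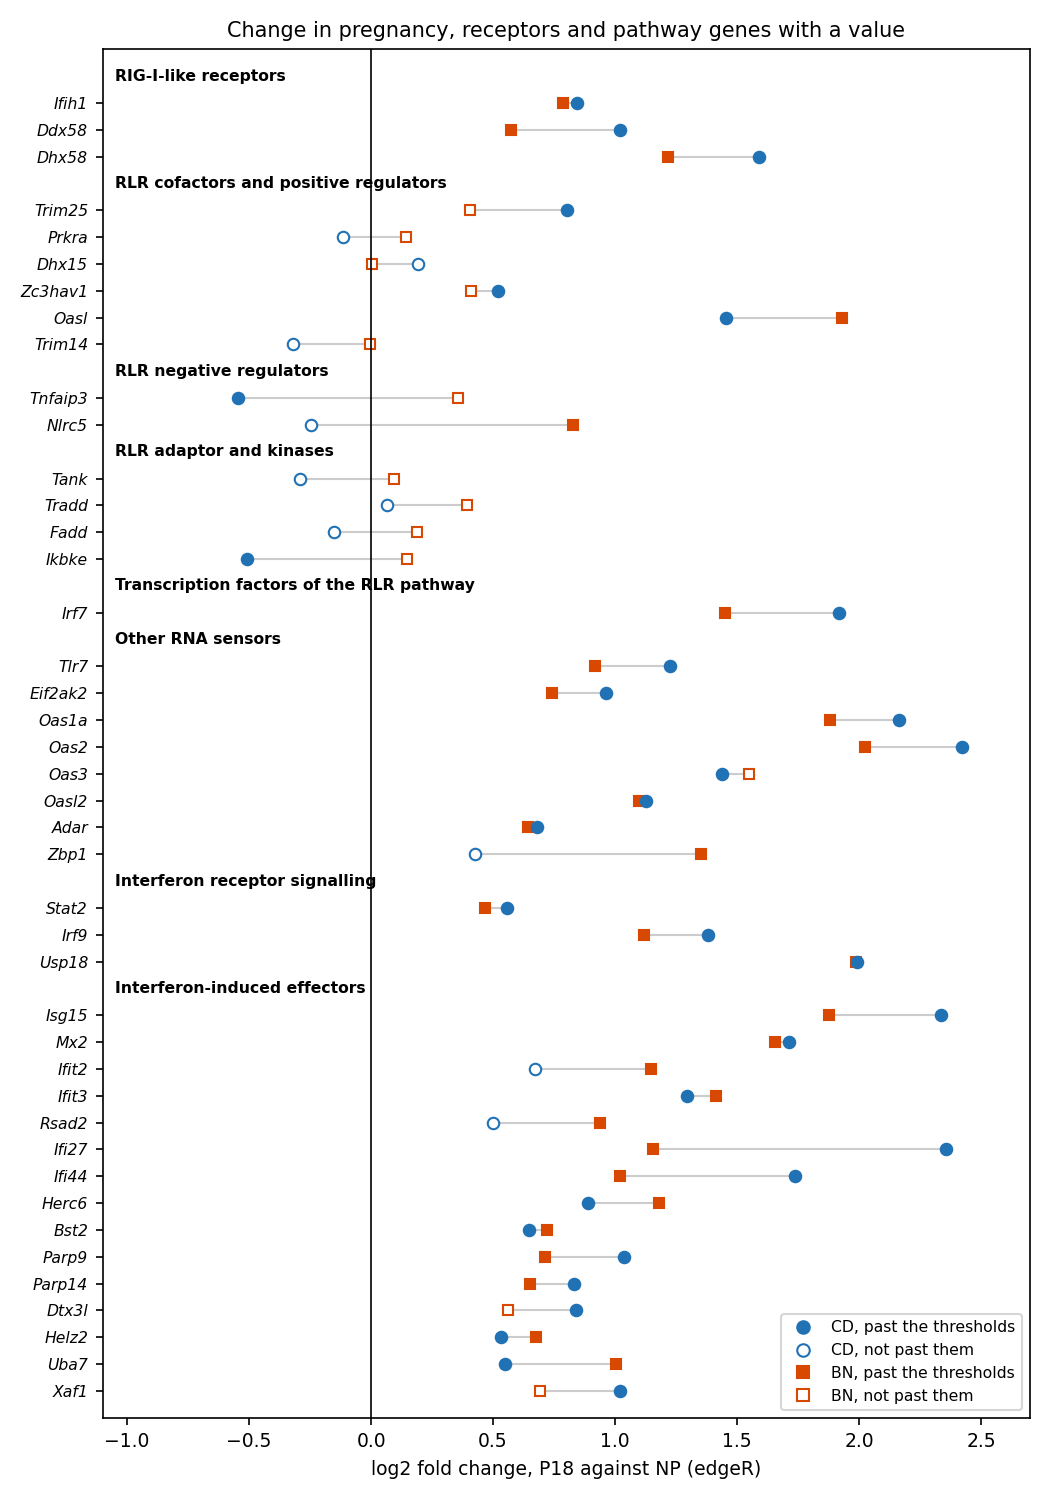
Log2 fold change at P18 against NP (horizontal axis, edgeR) of the 3 receptors and of the 39 pathway genes with a value, by list (RLR: RIG-I-like receptor), with circles for CD and squares for BN, filled where the change passed the thresholds. Sensors, interferon receptor signalling and effectors lie mostly to the right of 0 in both strains. Tnfaip3, Nlrc5, Ikbke, Tank, Fadd and Prkra lie left of 0 in CD and right of 0 in BN. Of these, only Tnfaip3 and Ikbke are filled in CD and only Nlrc5 in BN.

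Macrophage markers moved with pregnancy too. Of 10 macrophage markers 7 had a value, and 6 of the 7 were called higher in CD and 2 in BN, where 2.56% and 0.823% of all tested genes were called higher. As for the pathway lists, only genes with a low p in some comparison could be paired, so these counts lean towards changed genes. The 2 called in BN were C1qa and C1qc, and Aif1 was not called in either strain. Mrc1, the mannose receptor, rose by 1.86 on the log2 scale in CD and differed by -0.22 in BN (edgeR adjusted p = 0.000298 and 0.79), with an interaction of -2.08 (edgeR adjusted p = 0.00698) that was kept in 12 of 12 fits with a rat left out. C1qb, a chain of complement C1q, rose by 1.31 in CD and differed by 0.29 in BN (edgeR adjusted p = 0.00094 and 0.617), with an interaction of -1.02 (edgeR adjusted p = 0.0868) that was kept in 2 of 12 fits, those without CD-NP rat 1 or BN-P18 rat 1, with an adjusted p of up to 0.222 in the others. The summed level of the 7 was 111.7 to 128.1 CPM in CD-NP and 165.6 to 201.4 CPM in CD-P18, and 105.5 to 116.2 CPM in BN-NP and 135.0 to 145.0 CPM in BN-P18, and none of the 7 was at 0. Their part in the receptors' rise was not tested. The one T cell marker with a value, Cd4, was not called at P18 against NP in either strain, and no marker of B cells, neutrophils or dendritic cells was tested.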

How the data were processed

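RNA was measured in 12 kidney sections. Per the labels and methods, libraries were stranded and depleted of ribosomal RNA, and reads were trimmed with Trimmomatic, aligned to Rnor_6.0 with STAR 2.5.2 and counted with HTSeq 0.6.1. The authors deposited raw counts per Ensembl gene. Entries not on a gene (72.5 to 75.6% of each column) were left out.

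Symbols were paired with rows by matching the study's tabulated log2 fold changes and mean levels to refitted values within 0.01, which paired 3025 of 3064 symbols (98.7%). With the fold signs turned as a check, 7.83% had a candidate. The tabulated genes have an unadjusted p of at most 0.01 in a comparison. The 3 receptors matched within 0.0016, and the next gene was 0.18 or more away. In RefSeq (GRCr8) Ddx58 is named Rig1 and shares 13 bases with a non-coding gene, LOC120102855, and the other two overlap no gene.

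Counts were analysed with edgeR 4.0.16 in R 4.3.3 (filterByExpr, TMM, 4 group means, quasi-likelihood test, Benjamini-Hochberg over 14212 genes), tested on simulated data, with DESeq2 1.42.0 as an alternative. Log2 CPM used a prior count of 2. Replicates are separate rats. Genes named beside the receptors are, per list, up to 3 called genes in order of p, the fixed partners, and the 5 most like each receptor. The effectors called between the strains are named as well. The members and lists were chosen with earlier results of these data known. The RRBS methylation files, on Rnor_6.0, were not used here because no gene positions on that build were given, so promoter CpGs were not analysed here. A few list genes are not reported here.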

Additional observations from a re-analysis of the deposited data

Results flagged for a closer look

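With all rats, the interaction of pregnancy with strain passed the test for 2 regulators of the receptors and 2 macrophage markers. It also passed for the distal tubule marker Slc12a3. Of all tested genes 0.943% were called for the interaction. Only genes with a low p in some comparison of these samples could be paired, so these counts lean towards changed genes. For Slc12a3 the interaction was 0.54 on the log2 scale (edgeR adjusted p = 0.0695), with a change of -0.44 in CD and 0.10 in BN. Fits with a rat left out are not given for Slc12a3. For Nlrc5 the BN change minus the CD change was 1.07 on the log2 scale (edgeR adjusted p = 0.0551), and with a rat left out it ranged from 0.978 to 1.253 and was kept in 7 of 12 fits, being lost without CD-NP rat 3, CD-P18 rats 1 or 3 or BN-NP rats 1 or 2 (adjusted p of up to 0.184). For Tnfaip3 it was 0.90 (edgeR adjusted p = 0.0844), with a range of 0.793 to 0.998, and was kept in 3 of 12 fits, those without CD-NP rat 1, BN-NP rat 3 or BN-P18 rat 3, while the adjusted p reached 0.226 in the others. For the macrophage marker Mrc1 it was -2.08 (edgeR adjusted p = 0.00698), with a range of -2.21 to -1.85, and was kept in 12 of 12 fits. For C1qb it was -1.02 (edgeR adjusted p = 0.0868), with a range of -1.16 to -0.87, and was kept in 2 of 12 fits, those without CD-NP rat 1 or BN-P18 rat 1, while the adjusted p reached 0.222 in the others.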

How the results depend on the processing

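Under the other scalings, filters, DESeq2, the replicate block and fits of the 6 libraries compared, all 6 pregnancy calls of the receptors were kept and none of the strain or interaction results was called. With adjusted p under 0.05 and fold over 1.5 the CD calls were kept and the BN calls were lost (Ifih1 0.79, adjusted p = 0.059, Ddx58 0.57, adjusted p = 0.0767, and Dhx58 1.22, adjusted p = 0.0925). Under those thresholds the genes called were 225 in CD, 70 in BN, 496 between strains at NP, 616 at P18 and 64 for the interaction. The CD calls became 0 for negative regulators and 0 for adaptor and kinases, and the BN calls 0 for transcription factors. With no filter, 352 genes were called in BN and 329 for the interaction, and 3 cofactors in BN. DESeq2 called 330 genes for the interaction and 3 cofactors in BN. With the replicate block, 235 genes were called for the interaction, 0 of the adaptor and kinase list in CD and 2 cofactors in BN. Of the same-numbered pairs of libraries, 3 of 18 correlated above 0.1 (range -0.19 to 0.27), and 4 of 12 libraries correlated best with their own number. With 3 rats a group these values cannot exclude that rats of 1 number were paired or handled together. The replicate block is therefore given as an alternative only.

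With each rat left out, the BN log2 fold changes ranged from 0.64 to 0.88 (Ifih1), 0.44 to 0.65 (Ddx58) and 0.97 to 1.41 (Dhx58). The genes called ranged from 327 to 715 in CD, 27 to 228 in BN, 657 to 1372 between strains at NP, 963 to 1460 at P18 and 50 to 282 for the interaction. By list, the CD calls ranged from 0 to 1 for negative regulators, 0 to 1 for adaptor and kinases and 8 to 15 for effectors, and the BN calls from 1 to 2 for cofactors, 0 to 1 for negative regulators, 0 to 1 for transcription factors, 3 to 7 for other sensors, 1 to 3 for interferon receptor signalling and 3 to 13 for effectors. The causes were not tested. The planned promoter CpG results were not run. With 3 rats a group and 35 to 92 reads in CD-NP, the interval of the Dhx58 interaction spans more than 1.5 on the log2 scale, so a strain difference in its rise was not determined.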
